A study of Mus musculus with 4 samples.

Results

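Immediate early genes are switched on within minutes of a signal, before new protein is made, by transcription factors that already sit in the resting cell. Many of their products, among them the FOS and JUN proteins that pair to form the factor AP-1, then drive later genes, while others end the signal: DUSP phosphatases remove the phosphates that activate MAP kinases, ZFP36 proteins lead short-lived mRNAs to decay, and IkB-alpha (Nfkbia) and A20 (Tnfaip3) are NF-kB targets that hold NF-kB back. In T cells the set follows antigen receptor signals and also the stress of tissue handling, and several of its members keep resting T cells quiescent. Here 41 such genes were followed in blood T cells of tumor-bearing mice and in other blood cells that came through the T cell enrichment. They were chosen by name, with earlier results of these data known. All 41 symbols were found among the 27998 genes of the deposited tables, and they took 122152 UMIs (unique molecular identifiers, each counting 1 captured mRNA molecule).

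The data were single-cell RNA-seq libraries of blood from C57BL/6 mice that were 6 to 8 weeks old at the start and carried subcutaneous MC-38 tumors, a colon carcinoma line of the same strain. The 4 libraries came from an untreated mouse, an anti-PD-L1 mouse (150 µg of blocking antibody on days 10, 13 and 17), an anti-OX40/CpG mouse (150 µg of agonistic antibody to the costimulatory receptor OX40 and 25 µg of the TLR9 ligand CpG on day 7; the label of this sample names OX40 alone) and a PDOX mouse, which had both regimens, and all blood was taken on day 18 after tumor challenge. Each treatment thus had 1 library, and mouse, library and treatment cannot be told apart. No p-value is given between treatments, and intervals on levels and ratios cover counting error only.

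Cells with 200 or more genes were kept, 784 in the untreated library and 1446, 1559 and 1510 in the libraries of the anti-PD-L1, the anti-OX40/CpG and the PDOX mouse, an order kept for every series of 4 values. Levels are UMIs per 10000 UMIs of the same cells, without mitochondrial, ribosomal and hemoglobin genes, and since the 3′ method counts each molecule once they were not divided by gene length. Gates set on marker UMIs held 315, 638, 672 and 451 CD8 T cells and 98, 194, 266 and 300 CD4 T cells. Of 5299 cells 4725 were T cells by Cd3 UMIs, of which 230 had UMIs of both coreceptors and 1561 of neither. The other cells that came through the enrichment were few: 13, 5, 30 and 14 NK cells, 31, 55, 7 and 36 B cells, and 9, 33, 12 and 37 monocytes. The gate rule itself used these markers and set limits on Cd3, B and monocyte markers of other classes, but none on NK markers. The sums thus describe the gates and do not test their names. Cd3 genes were at 0 in the NK and B gates, NK markers summed to 117 to 127 in the NK gate, B markers to 81.2 to 135 in the B gate, and monocyte markers to 353 to 509 in the monocyte gate. In the monocyte gate NK markers summed to 55.6 to 70.9, from 2 of the 7 markers. UMIs of all 41 genes were present in CD8 T cells and of 40 in CD4 T cells, against 36 in NK cells and 38 each in B cells and monocytes, and 38, 35, 13, 18 and 21 genes reached 30 UMIs in these gates.

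Early response genes are known for short regulatory elements close to their start sites. The cyclic AMP response element (CRE, TGACGTCA) and its core TGACG are bound by CREB and ATF proteins, the AP-1 site (TGANTCA) by FOS and JUN, the CArG box by serum response factor and the kappa-B motif by NF-kB. The 250 bases before the start were read for the 33 members in the RefSeq table (GRCm38.p6), and 4 that bear on the results below are shown because they hold the contrast between CRE-type and kappa-B letters, with every motif match in capitals. Fos, the partner of JUN proteins, is at chr12:85473640-85473889 (plus strand), Nr4a1, the orphan nuclear receptor Nur77, at chr15:101266596-101266845 (plus strand), Dusp1 at chr17:26508473-26508722 (minus strand) and Nfkbia at chr12:55492648-55492897 (minus strand).
Fos: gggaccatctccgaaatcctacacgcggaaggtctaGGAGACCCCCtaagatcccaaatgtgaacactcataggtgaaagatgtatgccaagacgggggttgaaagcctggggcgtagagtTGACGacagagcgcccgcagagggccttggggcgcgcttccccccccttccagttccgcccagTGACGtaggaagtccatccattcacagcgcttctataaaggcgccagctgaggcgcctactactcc
Nr4a1: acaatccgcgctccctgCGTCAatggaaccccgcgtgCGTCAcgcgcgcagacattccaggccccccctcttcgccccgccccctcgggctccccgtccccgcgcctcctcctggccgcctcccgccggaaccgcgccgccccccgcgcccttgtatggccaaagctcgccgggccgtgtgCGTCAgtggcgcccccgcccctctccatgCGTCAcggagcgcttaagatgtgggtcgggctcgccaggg
Dusp1: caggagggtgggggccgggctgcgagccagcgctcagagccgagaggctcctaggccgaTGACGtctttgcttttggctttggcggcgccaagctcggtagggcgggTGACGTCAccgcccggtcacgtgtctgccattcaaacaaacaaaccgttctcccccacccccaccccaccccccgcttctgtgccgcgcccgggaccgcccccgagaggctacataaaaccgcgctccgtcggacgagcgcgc
Nfkbia: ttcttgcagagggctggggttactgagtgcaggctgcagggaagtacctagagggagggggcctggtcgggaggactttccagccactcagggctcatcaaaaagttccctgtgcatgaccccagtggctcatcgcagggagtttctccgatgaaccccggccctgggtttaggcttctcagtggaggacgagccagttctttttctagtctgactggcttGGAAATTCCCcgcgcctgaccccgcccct
Dusp1 held a whole CRE whose first base lies 143 bases before the start, Fos held TGACG at 129 and 66 bases and a kappa-B motif at 214, and Nr4a1 held TGACG, on the reverse strand as CGTCA, at 233, 213, 69 and 40. Nfkbia held a kappa-B motif at 29 bases and no TGACG.

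On both strands, TGACG was present in 20 of the 33 members (60.6%) and in 19.8% of all 27025 genes of the table. The whole CRE, which contains that core, was present in 4 members (12.1%; Dusp1, Btg2, Nfkbid and Ppp1r15a) and in 1.77% of all genes. The kappa-B motif was found in 8 members (24.2%; Fos, Fosb, Fosl2, Ier3, Nfkbia, Nfkbid, Tnfaip3 and Rel) against 8.23% of genes. AP-1 sites were in 3 members (9.09%) against 7.82% of genes, and CArG boxes in 2 (6.06%; Dusp5 and Zfp36) against 1.62%. These are matches of letters, not measured binding. No promoter was read for Ier2, Egr1, Egr3, Myc, Zfp36l2, Nfkbiz, Cd69 and Rgs1.

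In T cells the summed level of the 41 genes was highest in the untreated library and lowest in the PDOX library. CD8 T cells stood at 174 (170 to 177), 131 (129 to 133), 126 (124 to 128) and 102 (99.9 to 104) UMIs per 10000. CD4 T cells stood at 182 (175 to 189), 147 (143 to 151), 128 (125 to 131) and 113 (110 to 116). T cells in which no Cd4, Cd8a or Cd8b1 UMI was seen, 1561 cells in all, had 175, 147, 142 and 138. The untreated library lay above each treated one in each of these 3 groups of T cells, beyond counting error.

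**Figure D1:**
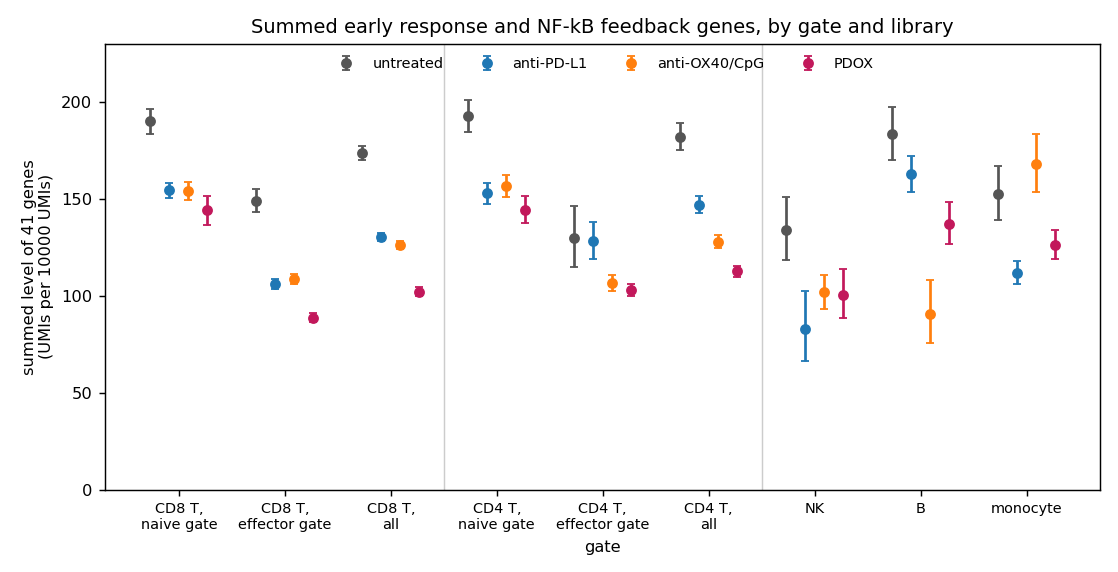
Summed level of the 41 genes (UMIs per 10000, vertical axis from 0) in each library and gate; points are libraries and bars are 95% intervals for counting error only. CD8 T cells go from 174 in the untreated library to 102 in the PDOX library and CD4 T cells from 182 to 113, whereas the monocyte point of the anti-OX40/CpG library, at 168, is not below the untreated one.

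As ratios to the untreated library, CD8 T cells had 0.752 (0.732 to 0.772) with anti-PD-L1, 0.726 (0.707 to 0.746) with anti-OX40/CpG and 0.588 (0.570 to 0.606) with PDOX. CD4 T cells had 0.807 (0.769 to 0.847), 0.703 (0.672 to 0.736) and 0.619 (0.592 to 0.648). All of these comparisons share the 1 untreated library, so a deviation of that library enters every ratio. Whether a library shift was alike in both T cell lineages was asked with the ratio of the ratios, where 1 means an equal shift. CD4 over CD8 gave 1.07 (1.02 to 1.13), 0.969 (0.919 to 1.02) and 1.05 (0.997 to 1.11), and the interval left out 1 for the anti-PD-L1 library. This depended on the total, since with all genes kept in it the ratios of ratios were 1.01, 0.965 and 1.01.

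The other blood cells did not all follow the T cells. NK cells had ratios of 0.620 (0.481 to 0.793), 0.759 (0.654 to 0.883) and 0.752 (0.631 to 0.895), and B cells had 0.887 (0.807 to 0.976), 0.495 (0.405 to 0.60) and 0.748 (0.672 to 0.834). Monocytes had 0.734 (0.660 to 0.818), 1.10 (0.969 to 1.25) and 0.828 (0.741 to 0.926). Set against CD8 T cells, the anti-OX40/CpG ratio was higher in monocytes (ratio of ratios 1.52, 1.33 to 1.73) and lower in B cells (0.681, 0.557 to 0.828). In the PDOX library the ratios of ratios were 1.28 (1.07 to 1.53) in NK cells, 1.27 (1.14 to 1.42) in B cells and 1.41 (1.26 to 1.58) in monocytes, but these depended on the total: the ribosomal share was lower in the PDOX T cells, and with all genes kept in the total they were 1.07, 1.03 and 1.14. The anti-OX40/CpG contrasts stood at 1.38 in monocytes and 0.688 in B cells with that total. The anti-OX40/CpG value of B cells rests on 7 cells and the untreated value of monocytes on 9, in which 1 cell held 40 of 81 Jun UMIs and 1 cell held 19 of 44 Fos UMIs. The anti-OX40/CpG value of monocytes rests on 12 cells. There 1 cell held 20 of 63 Jun UMIs, 1 cell 20 of 51 Fos UMIs and 1 cell 15 of 37 Junb UMIs. The intervals treat UMIs as independent, which UMIs of 1 cell are not, so they are too narrow here.

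The T cell gates did not have the same makeup. Effector-gate cells, those with UMIs of 3 or more of 10 effector markers, made up 25.7%, 31.3%, 47.0% and 66.5% of CD8 T cells and 8.16%, 12.4%, 39.8% and 61.3% of CD4 T cells. Naive-gate cells had at most 1 effector marker and at least 1 naive marker such as Ccr7 or Lef1. Within naive-gate CD8 T cells the summed level was 190 (184 to 197), 154 (151 to 158), 154 (149 to 159) and 144 (137 to 152), and within effector-gate CD8 T cells it was 149 (143 to 155), 106 (103 to 109), 109 (106 to 111) and 88.7 (86.3 to 91.0). The effector-gate level was thus below the naive-gate level in each library.

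With state held fixed, the ratios of the naive-gate cells lay nearer 1 in the PDOX library: 0.812, 0.811 and 0.758 in CD8 and 0.793, 0.813 and 0.748 in CD4 T cells. Between the lineages these naive-gate shifts agreed within counting error, with CD4 over CD8 at 0.976 (0.91 to 1.05), 1.0 (0.932 to 1.08) and 0.988 (0.903 to 1.08). Effector-gate CD8 T cells had 0.711, 0.730 and 0.594, and in the PDOX library their ratio was 0.784 (0.725 to 0.848) of that in naive-gate cells. This contrast depends on the total, which leaves out ribosomal genes. Their share in effector-gate CD8 T cells was 46.4% in the untreated and 34.5% in the PDOX library, against 47.7% in both among naive-gate cells. No value of this contrast with all genes kept is given. Effector-gate CD4 T cells had 0.987 (0.857 to 1.14), 0.821 and 0.793 against only 8 untreated cells. Those 8 cells also differed in other measures. Their ribosomal share was 18.6%, against 29.6%, 32.4% and 27.5% in the treated libraries. Neutrophil markers summed to 7.16 in them, against 0, 0.331 and 1.12. The ratio of the PDOX library was thus 0.588 over all CD8 T cells and 0.758 among naive-gate cells. With all genes kept in the total it was 0.698 over all CD8 T cells, so the distance between these values also depends on the total.

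The lower level was also seen in the median cell. With every cell thinned to 750 UMIs, the median cell held 13, 10, 9 and 8 member UMIs in CD8 T cells (286, 600, 619 and 404 cells after leaving out 29, 38, 53 and 47 shallower ones). In naive-gate CD8 T cells the medians were 15, 11, 10 and 11, and in effector-gate CD8 T cells 11, 8, 8 and 7. CD4 T cells had 14, 11, 10 and 8. The 90th percentile of CD8 T cells moved as the median did, from 21 to 17, 16 and 15.

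Several other measures moved with the libraries, and their part in the result was not tested. The ribosomal share of CD8 T cell UMIs was 47.3%, 45.5%, 46.9% and 38.5%, and the mitochondrial share was 2.78%, 2.38%, 2.41% and 2.19%. The 10 heat shock genes summed to 82.6, 85.0, 67.7 and 66.9 in CD8 T cells and to 74.2, 81.4, 65.8 and 64.3 in CD4 T cells. They summed to 95.5, 74.5, 36.8 and 51.9 in NK cells, 61.7, 60.7, 36.2 and 43.9 in B cells and 55.6, 65.6, 70.4 and 66.2 in monocytes. In CD8 T cells their anti-PD-L1 ratio was 1.03, against 0.752 for the members. Monocyte markers in the CD8 gate summed to 5.31, 3.98, 3.43 and 3.01 (7 of 8 with UMIs), neutrophil markers to 0.102, 0.123, 0.0683 and 0.953 (7 of 7) and platelet markers to 0.143, 0.253, 0.137 and 0.804 (5 of 5). The monocyte marker sum in the gate was thus highest in the untreated library, and the neutrophil and platelet marker sums in the PDOX library. Whether these UMIs came from other cells or from the T cells themselves was not tested. Libraries shared 1 to 6 cell barcodes per pair.

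Single members were lower by 1.5-fold or more at a larger share than all genes were, most of all in the PDOX library. Among members with 30 or more UMIs over the pair of libraries in CD8 T cells, 6 of 36 were lower by 1.5-fold or more with anti-PD-L1, where 9.36% of all genes were, and 2 were higher, where 7.98% of all genes were. With anti-OX40/CpG 10 of 35 were lower (background 11.1%) and 0 higher (background 8.6%), and with PDOX 21 of 34 were lower (background 15.6%) and 1 higher (background 10.8%). The median log2 ratio of these members was -0.42, -0.54 and -0.80, against -0.05, -0.08 and -0.08 for all genes. In CD4 T cells 5 of 25 were lower with anti-PD-L1 (background 7.42%) and 0 higher (background 10.3%), 12 of 29 lower with anti-OX40/CpG (background 10.6%) and 1 higher (background 16%), and 13 of 28 lower with PDOX (background 13.2%) and 3 higher (background 19%). Their medians were -0.28, -0.52 and -0.52 against 0.04, 0.04 and 0.08. Keeping all genes in the total raised every log2 ratio of the PDOX library by 0.25 in CD8 and 0.18 in CD4 T cells, members and other genes alike. It took 6 members of CD8 (Dusp5, Egr1, Fosb, Gadd45b, Pim1 and Zfp36l2) and 5 of CD4 T cells (Fos, Gadd45b, Ier5, Sgk1 and Zfp36l2) from below to above 1.

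The 7 AP-1 genes together had CD8 ratios of 0.756, 0.639 and 0.518 and CD4 ratios of 0.798, 0.613 and 0.540. Junb, a JUN protein that restrains as well as drives AP-1 genes, stood at 22.9, 18.5, 15.7 and 10.7 UMIs per 10000 in CD8 T cells and at 29.2, 23.0, 18.4 and 13.9 in CD4 T cells. Its PDOX ratio was 0.467 (0.427 to 0.511) in CD8 and 0.475 (0.421 to 0.536) in CD4 T cells. Jun, the partner of FOS, stood at 8.34, 6.23, 5.74 and 4.28 in CD8 and at 9.79, 7.81, 6.06 and 4.37 in CD4 T cells, with PDOX ratios of 0.513 (0.443 to 0.594) and 0.447 (0.362 to 0.554). Among naive-gate CD8 T cells alone, the ratios of Jun were 0.801 (0.665 to 0.967) with anti-PD-L1, 0.804 (0.654 to 0.989) with anti-OX40/CpG and 0.841 (0.643 to 1.09) with PDOX. In naive-gate CD4 T cells they were 0.838 (0.662 to 1.06), 0.757 (0.591 to 0.969) and 0.963 (0.743 to 1.25), so there the PDOX interval reached 1 in both lineages.

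Jund, which unlike its relatives is made steadily in resting cells, stood at 15.8, 11.8, 8.21 and 9.10 in CD8 T cells and at 14, 11.5, 7.04 and 8.97 in CD4 T cells. It was lowest with anti-OX40/CpG, at 0.521 (0.473 to 0.573) of the untreated level in CD8 and 0.501 (0.421 to 0.599) in CD4, and it remained so in naive-gate cells (0.608 and 0.550). The level of Fos was 4.61, 2.65, 3.10 and 2.28 in CD8 T cells (ratios 0.574, 0.672 and 0.494). In CD4 T cells it was 2.90, 2.23, 2.63 and 2.59, where each interval of the ratio reached 1. In the PDOX library the Fos shift was weaker in CD4 than in CD8 T cells as wholes, with a ratio of ratios of 1.81 (1.20 to 2.75). Among naive-gate cells alone the PDOX ratios of Fos lay close together, at 0.855 (0.573 to 1.26) in CD8 and 0.861 (0.507 to 1.46) in CD4 T cells. Fosb, an AP-1 gene that accumulates on repeated signals, stood at 0.758, 0.352, 0.717 and 0.742 in CD8 T cells and at 0.405, 0.531, 0.689 and 0.826 in CD4 T cells, with a CD8 ratio of 0.464 (0.292 to 0.740) for anti-PD-L1 and CD4 ratios of 1.70 (0.704 to 4.97) and 2.04 (0.866 to 5.86) for anti-OX40/CpG and PDOX. Fosl2 and Atf3 were too rare in T cells for a ratio, with 51 and 7 UMIs in all CD8 T cells.

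Of the 11 other early response factors, the set summed to CD8 ratios of 0.806, 0.714 and 0.608 and CD4 ratios of 0.814, 0.719 and 0.704. Nr4a1, whose transcript follows antigen receptor signals closely, had the largest gap: 1.0, 0.564, 0.231 and 0.136 in CD8 T cells and 1.49, 0.930, 0.418 and 0.131 in CD4 T cells. Its CD8 ratios were 0.562 (0.384 to 0.827), 0.230 (0.138 to 0.375) and 0.136 (0.0635 to 0.264), the last from 11 UMIs against 49. In naive-gate CD8 T cells the anti-PD-L1 and anti-OX40/CpG ratios were 0.481 (0.269 to 0.864) and 0.145 (0.0432 to 0.385), so the gap was also present with naive-gate cells alone.

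Ier2, a nuclear early response protein, stood at 8.14, 6.83, 5.52 and 4.43 in CD8 T cells. Ier5 stood at 5.17, 4.53, 3.66 and 2.83 in CD8 T cells, and its PDOX shift was weaker in CD4 T cells (ratio of ratios 1.71, 1.21 to 2.41). Klf6, a zinc finger factor, stood at 11.9, 8.49, 9.15 and 8.34. Nr4a2 had a CD8 ratio of 1.30 (0.595 to 3.12) for anti-OX40/CpG, from 28 UMIs against 9. Ratios of rare genes could rest on few cells: Ier3 had a CD8 ratio of 8.77 (3.31 to 32.9) with anti-PD-L1, but 59 of its 88 UMIs came from 1 cell, and the CD4 Egr1 ratio of 8.34 (1.39 to 340) with PDOX compared 30 UMIs with 1. Those intervals treat UMIs as independent, which UMIs of 1 cell are not.

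Among the genes that end the signal, the 3 MAP kinase phosphatases had summed CD8 ratios of 0.733, 0.672 and 0.629. Dusp1, a nuclear phosphatase of p38 and JNK, stood at 2.81, 2.05, 1.61 and 1.18 in CD8 and at 3.71, 2.86, 2.15 and 1.80 in CD4 T cells, with PDOX ratios of 0.419 (0.319 to 0.548) and 0.485 (0.345 to 0.689). Among naive-gate cells its PDOX ratios were 0.684 (0.413 to 1.10) in CD8 and 0.793 (0.495 to 1.26) in CD4 T cells. Dusp2, which acts on ERK, stood at 3.50, 2.62, 2.88 and 2.49 in CD8 T cells, and Dusp5, a nuclear ERK phosphatase, at 1.11, 0.768, 0.495 and 1.0. Dusp5 differed from Dusp1 in its order: it was lowest with anti-OX40/CpG (0.448, 0.304 to 0.661) and within counting error of the untreated level with PDOX (0.906, 0.634 to 1.30).

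The 5 mRNA decay and antiproliferative genes had CD8 ratios of 0.684, 0.791 and 0.596. Btg1, which slows cell division and helps to keep naive T cells quiescent, was the most abundant member and took on average 23.6% of member UMIs in CD8 T cells, 22.7% in CD4 T cells and 11.1% in monocytes. It stood at 41.1, 26.8, 34.1 and 23.6 in CD8 and at 41.8, 29.6, 32.3 and 25.5 in CD4 T cells, so anti-OX40/CpG lay above anti-PD-L1 in both. Zfp36 (tristetraprolin), which takes cytokine mRNAs to decay, stood at 3.38, 2.73, 2.23 and 1.76 in CD8 and at 4.12, 3.59, 2.36 and 1.35 in CD4 T cells, where its PDOX ratio of 0.328 (0.230 to 0.470) was the lowest among the members with 30 or more UMIs. Among naive-gate cells its PDOX ratios were 0.604 (0.344 to 1.02) in CD8 and 0.704 (0.407 to 1.20) in CD4 T cells. Btg2 stood at 4.49, 3.22, 3.0 and 2.85 in CD8 T cells, and Zfp36l1 and Zfp36l2 had PDOX ratios of 0.550 (0.422 to 0.716) and 0.849 (0.707 to 1.02).

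The 5 NF-kB genes had summed ratios of 0.829, 0.647 and 0.501 in CD8 and 0.823, 0.547 and 0.465 in CD4 T cells. Nfkbia, the inhibitor that NF-kB itself induces, stood at 6.85, 5.94, 4.67 and 3.22 in CD8 and at 8.51, 7.61, 5.16 and 4.19 in CD4 T cells, with ratios of 0.470 (0.398 to 0.554) and 0.492 (0.394 to 0.617) in the PDOX library. Among naive-gate cells its PDOX ratios were 0.801 (0.588 to 1.08) in CD8 and 0.683 (0.501 to 0.928) in CD4 T cells. Nfkbiz, a nuclear IkB protein, stood at 1.25, 1.14, 0.709 and 0.458 in CD8 and at 1.42, 1.30, 0.606 and 0.544 in CD4 T cells. Tnfaip3, the ubiquitin-editing enzyme A20, stood at 2.07, 1.49, 1.24 and 1.41 in CD8 and at 2.16, 1.20, 0.710 and 1.01 in CD4 T cells, and with anti-OX40/CpG its CD4 ratio was 0.550 times the CD8 ratio. Nfkbid and Rel, a subunit of NF-kB, had PDOX ratios in CD8 T cells of 0.410 (0.216 to 0.760) and 0.604 (0.341 to 1.07).

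The pathways around these genes were read from lists of other members. A list of 27 other NF-kB pathway genes, such as kinases and adaptor proteins, had summed ratios of 0.836, 0.837 and 0.761 in CD8 T cells and of 1.09, 1.02 and 1.04 in CD4 T cells. A list of 28 other early response and MAP kinase genes had 0.737, 0.683 and 0.691 in CD8 and 0.786, 0.763 and 0.840 in CD4 T cells.

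The 5 surface and signalling genes stood nearest to 1, with CD8 ratios of 0.885, 0.889 and 0.863 and CD4 ratios of 0.944, 0.972 and 1.01. Cd69, which keeps lymphocytes from leaving tissue, stood at 4.04, 3.04, 2.77 and 2.81 in CD8 and at 3.58, 2.49, 2.40 and 2.5 in CD4 T cells, at 0.685 to 0.753 times the untreated level in the CD8 T cells of the treated libraries. Rgs1, a brake on chemokine receptor signals, was not: it stood at 2.17, 1.72, 2.41 and 2.26 in CD8 and at 1.49, 1.99, 2.09 and 3.17 in CD4 T cells, with a CD4 PDOX ratio of 2.14 (1.37 to 3.50) that was 2.05 (1.22 to 3.56) times the CD8 ratio. In naive-gate CD4 T cells the Rgs1 ratio for PDOX was 0.631 (0.277 to 1.39). Sgk1, a kinase downstream of PI3K, stood at 0.512, 0.752, 0.598 and 1.03 in CD8 T cells, a PDOX ratio of 2.0 (1.27 to 3.27). Among naive-gate CD8 T cells Sgk1 stood at 0.388 in the untreated library, from 7 UMIs, and at 0.388 in the PDOX library. Pim1, a survival kinase, stood at 5.49, 5.42, 5.15 and 4.74 in CD8 and at 5.27, 6.44, 6.75 and 6.03 in CD4 T cells, within counting error of the untreated library, and 48 of the 194 CD4 UMIs with anti-PD-L1 came from 1 cell. Rgs2 had CD4 levels of 2.03, 1.06, 1.21 and 0.826.

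The 5 stress and polyamine genes had CD8 ratios of 0.678, 0.804 and 0.549 and CD4 ratios of 0.817, 0.694 and 0.464, but 0.827, 1.09 and 1.10 in naive-gate CD8 T cells. Ppp1r15a (GADD34), which restores translation after stress, stood at 3.75, 2.70, 2.76 and 2.0 in CD8 and at 4.93, 4.15, 2.80 and 1.86 in CD4 T cells. Its PDOX ratio was 0.534 (0.430 to 0.664) over all CD8 T cells and 1.27 (0.879 to 1.82) in the naive-gate ones. Amd1, an enzyme of polyamine synthesis whose reads can also fit the near-identical Amd2, alternated between libraries at 1.11, 0.360, 1.09 and 0.359 in CD8 T cells. Odc1, the first enzyme of that pathway, had CD8 ratios of 0.653 to 0.732 with intervals that reached 1, and Gadd45a (1.79 with anti-PD-L1, 0.726 to 5.32) and Gadd45b were rare.

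Outside the T cells few members reached 30 UMIs over a pair of libraries, 4, 11 and 7 in NK cells, 16, 6 and 14 in B cells and 17, 10 and 17 in monocytes. Where the treated library held few cells this minimum could be met through a high untreated level alone, so no median over these members is given. NK-cell Jun stood at 14.5, 3.82, 5.87 and 9.83 and Btg2 at 12.5, 6.69, 6.07 and 6.69, while Junb stood at 7.5, 11.5, 6.46 and 11.0 (PDOX ratio 1.47, 0.758 to 2.96). Jun and Btg2 were thus highest in the untreated NK cells and Junb was not. NK Nfkbia was at 3.0, 0.955, 1.76 and 1.18, and Nr4a1 had 0 UMIs in 62 NK cells.

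B-cell Junb stood at 19.9, 20.1, 7.38 and 13.9 and Ier5 at 9.97, 9.16, 0.738 and 10.1, the third value being 1 UMI in 7 cells (ratio 0.0740, 0.00183 to 0.438). The anti-OX40/CpG B cells were the lowest for both genes. The B cell levels of Jun (7.08, 7.64, 7.38 and 6.54) and Cd69 (5.25, 4.86, 4.43 and 5.69) lay close together, and those of both in CD8 T cells were highest in the untreated library. Rgs2 had a ratio of 2.0 (0.939 to 4.74) with anti-PD-L1. Platelet markers in the B gate summed to 5.25, 1.39, 0 and 42.2, and the part of platelet RNA in the PDOX value was not tested.

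In monocytes the AP-1 genes had summed ratios of 0.439 (0.367 to 0.525), 1.02 (0.834 to 1.25) and 0.563 (0.468 to 0.677). The NF-kB genes had 1.73 (1.01 to 3.20), 1.74 (0.886 to 3.52) and 1.69 (0.959 to 3.18), from 15 UMIs in the untreated library against 109, 26 and 71, so the interval left out 1 for anti-PD-L1 and reached it for the other two. Set against the CD8 T cell ratio, the NF-kB genes stood at 2.09 (1.20 to 3.90), 2.68 (1.35 to 5.5) and 3.38 (1.88 to 6.43) times it. Monocyte Nfkbia stood at 2.01, 4.87, 6.37 and 4.54, from 6 UMIs in the untreated library, and its ratio was 2.42 (1.05 to 6.86) with anti-PD-L1 and 2.26 (0.949 to 6.55) with PDOX. Jun stood at 27.1, 7.18, 21.1 and 7.77, Junb at 12.7, 6.06, 12.4 and 10.8, Fos at 14.7, 8.54, 17.1 and 8.13 and Dusp1 at 3.01, 4.15, 3.69 and 3.71. Btg2 had ratios of 2.24 (0.895 to 7.22) with anti-PD-L1 and 2.21 (0.854 to 7.30) with PDOX, and Ier5 of 1.82 (1.06 to 3.22) with anti-OX40/CpG. In the anti-PD-L1 library the Nfkbia ratio was 2.42 in monocytes against 0.867 (0.761 to 0.990) in CD8 T cells. However, 15 of the 61 monocyte Nfkbia UMIs of that library came from 1 cell, as did 11 of the 40 anti-OX40/CpG Ier5 UMIs. The intervals treat UMIs as independent, so whether the monocyte ratios differ from 1 stays unsure.

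Contrasts within a library could be tested, because each library holds both cell states. Effector-gate against naive-gate CD8 T cells, as sums per library with library as a block, gave 12 lower members (background 4.86% of the 5716 genes tested) and 3 higher members (background 7.44%) among 35 tested by edgeR's quasi-likelihood test at a Benjamini-Hochberg adjusted p under 0.05. The median log2 difference of the members was -0.34, against -0.01 for all genes. The p-values here measure the spread between 4 libraries of different treatments. Effector-gate cells held more UMIs than naive-gate cells, with medians of 1938, 2162, 1881 and 1909 against 1299, 1499, 1379 and 1302, and with each cell thinned to 750 UMIs 8 members were called.

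The lower genes were led by AP-1 members. Junb stood at 25.9, 23.6, 21.1 and 18.8 in naive-gate and at 17.2, 12.7, 11.3 and 8.56 in effector-gate CD8 T cells, a log2 difference of -0.81 (SE 0.0900, edgeR adjusted p = 1.79e-14). The highest effector-gate library lay below the lowest naive-gate library. Jun was at 9.93, 7.95, 7.98 and 8.35 against 6.66, 4.02, 4.43 and 2.89 (-0.90, SE 0.107, edgeR adjusted p = 8.49e-13), again without overlap. Ppp1r15a was at 4.21, 3.75, 3.97 and 5.34 against 2.66, 1.90, 1.94 and 1.19 (-1.10, SE 0.132, edgeR adjusted p = 1.47e-12). Btg1 was at 47.3, 33.5, 43.5 and 33.0 against 30.8, 20.2, 29.1 and 20.0 (-0.60), and here too the effector-gate levels all lay below the naive-gate levels.

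The NF-kB inhibitor and the phosphatase moved in the same direction. Nfkbia was at 7.87, 6.86, 5.57 and 6.31 against 4.97, 4.93, 3.80 and 2.24 (-0.65, SE 0.112, edgeR adjusted p = 1.12e-06), and Dusp1 at 3.55, 2.54, 2.37 and 2.43 against 1.94, 1.67, 1.34 and 0.849 (-0.79, SE 0.150, edgeR adjusted p = 1.24e-05). Jund (-0.44), Ier5 (-0.44), Klf6 (-0.34), Fos (-0.43, lower in 3 of 4 libraries), Ier2 (-0.34) and Zfp36l1 (-0.43) were also lower. Cd69 (-0.33, edgeR adjusted p = 0.0714) and Nr4a1 (-0.43, edgeR adjusted p = 0.438) did not pass.

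The higher genes were of another kind. Rgs1 was at 1.72, 1.43, 1.48 and 1.84 in naive-gate and at 2.97, 2.14, 3.11 and 2.5 in effector-gate CD8 T cells (0.81, SE 0.150, edgeR adjusted p = 7.45e-06), and Sgk1 at 0.388, 0.568, 0.281 and 0.388 against 0.605, 0.892, 0.754 and 1.22 (1.05, SE 0.25, edgeR adjusted p = 0.000755). Both were higher in 4 of 4 libraries. Ier3 was called at 3.79 (SE 0.494), but its UMIs were 1, 2, 0 and 2 in naive-gate and 1, 85, 19 and 7 in effector-gate cells. With DESeq2, or with either the anti-PD-L1 or the anti-OX40/CpG library left out, Ier3 was not among the called genes.

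**Figure D2:**
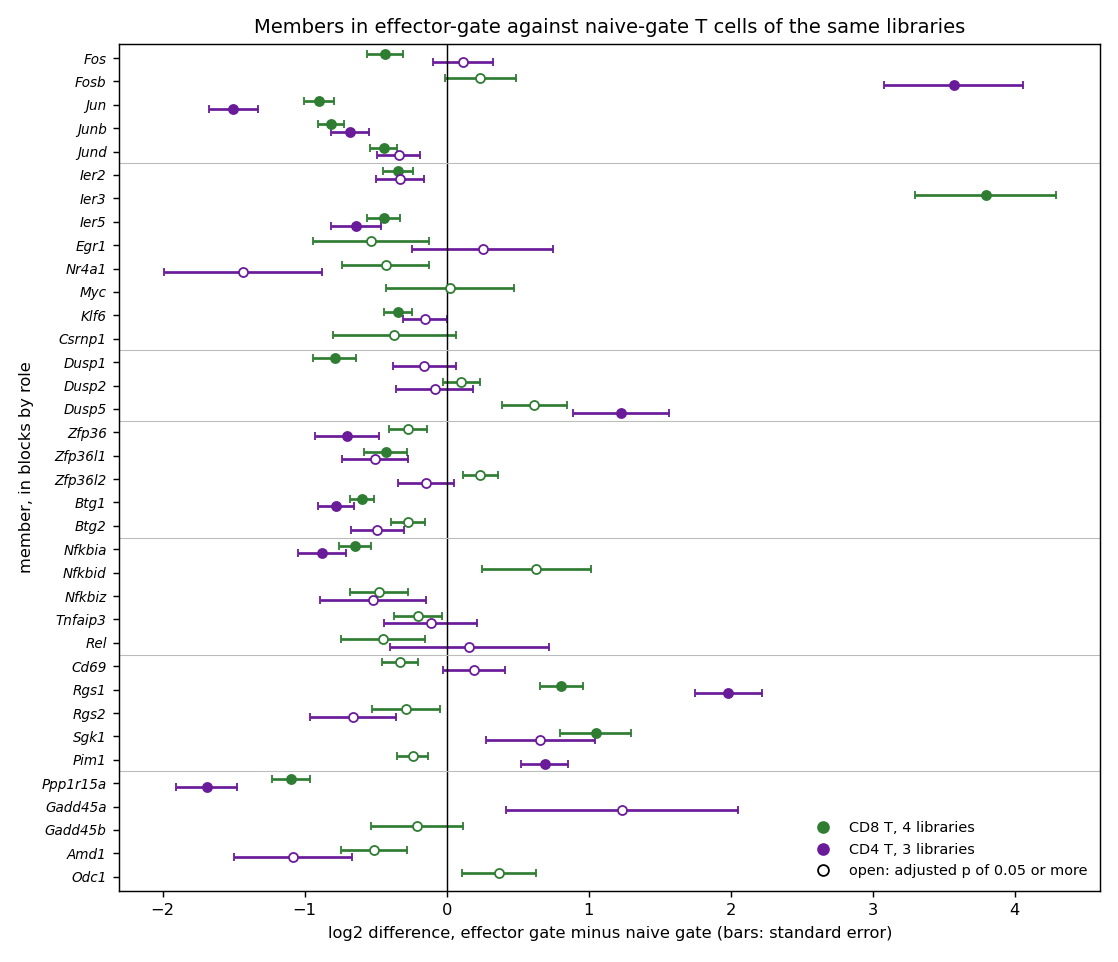
Log2 difference between effector-gate and naive-gate cells for each tested member in CD8 and CD4 T cells, with standard errors from edgeR; filled points passed an adjusted p of 0.05. Jun, Junb, Ppp1r15a, Btg1 and Nfkbia lie below 0 in both lineages and Rgs1 above 0 in both.

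CD4 T cells, tested in 3 libraries because the untreated one had 8 effector-gate cells, gave 7 lower members (background 6.77%) and 4 higher members (background 8.55%) of 30, with a median of -0.24 against 0.00 for all genes. Jun stood at 9.25, 8.35 and 10.6 in naive-gate and at 3.82, 3.85 and 2.45 in effector-gate cells of the anti-PD-L1, the anti-OX40/CpG and the PDOX library (-1.5, SE 0.171, edgeR adjusted p = 1.87e-14). Ppp1r15a (-1.69, edgeR adjusted p = 1.10e-11), Btg1 (-0.78), Nfkbia (-0.87, edgeR adjusted p = 1.11e-05), Junb (-0.68, edgeR adjusted p = 2.07e-05), Ier5 (-0.64) and Zfp36 (-0.70) were lower too. Rgs1 rose from 1.08, 0.946 and 1.04 to 4.74, 3.31 and 3.92 (1.98, SE 0.239, edgeR adjusted p = 4.29e-13), Pim1 by 0.69 and Dusp5 by 1.23 on the log2 scale. Without the anti-OX40/CpG library Ier5, Zfp36, Junb and Nfkbia lost their calls. Fos (0.12), Dusp1 (-0.16), Cd69 (0.19) and Nr4a1 (-1.44, edgeR adjusted p = 0.0622) did not pass.

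Fosb set the lineages apart. In CD4 T cells it went from 0.154, 0.167 and 0 in naive-gate to 2.0, 1.12 and 1.15 in effector-gate cells (3.57, SE 0.490, edgeR adjusted p = 2.15e-10), from 3, 3 and 0 UMIs to 11, 27 and 43. The difference between the lineages was tested itself: Fosb was the only member called (background 0.212% higher in CD4, 0.0965% lower), with 1 of 35 higher and 0 lower, at 2.96 (SE 0.645, edgeR adjusted p = 0.0313). Unadjusted, 6 of these 35 members had an edgeR p under 0.05, as did 395 of all 5179 genes tested. Pim1 (0.89, edgeR adjusted p = 0.0804), Rgs1 (1.07, edgeR adjusted p = 0.164), Fos (0.74, edgeR adjusted p = 0.199) and Jun (-0.50, edgeR adjusted p = 0.550) did not pass. In CD8 T cells Fosb stood at 0.321, 0.682 and 1.07 in naive-gate and at 0.446, 0.846 and 0.670 in effector-gate cells of those libraries, so its change there was small. The call for Fosb was lost once either the anti-OX40/CpG or the PDOX library was left out, and DESeq2 called 0 members.

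Between the lineages as wholes the genes differed little. Of 37 tested, 1 was higher in CD8 than in CD4 T cells (background 2.77%) and 3 were lower (background 1.72%). Dusp2 was higher by 0.97 (SE 0.105, edgeR adjusted p = 0.000112), and Rgs2 (-0.82, SE 0.153, edgeR adjusted p = 0.00656), Dusp1 (-0.41, SE 0.0989, edgeR adjusted p = 0.0299) and Junb (-0.25, SE 0.0644, edgeR adjusted p = 0.0410) were lower, each in 4 of 4 libraries. Leaving out any 1 library ended the calls of Dusp1 and Junb. Cd69 (0.27), Nfkbia (-0.24), Nr4a1 (-0.56), Fos (0.27) and Jun (-0.10) did not pass.

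NK cells were tested against CD8 and CD4 T cells together in 3 libraries, without anti-PD-L1 (5 NK cells): 9 of 33 members were lower (background 4.95%) and 3 higher (background 2.52%), with a median of -0.68 against -0.25 for all genes. Tnfaip3 (-2.84, SE 0.766, edgeR adjusted p = 0.00495), Ppp1r15a (-2.09), Cd69 (-1.69, edgeR adjusted p = 0.00211), Nfkbia (-1.58, SE 0.345, edgeR adjusted p = 0.000192), Dusp1 (-1.57, edgeR adjusted p = 0.0287), Zfp36 (-1.37), Klf6 (-1.22), Junb (-1.21, SE 0.253, edgeR adjusted p = 7.97e-05) and Btg1 (-0.74) were lower. Rgs2 (1.67), Rgs1 (1.36, SE 0.265, edgeR adjusted p = 1.47e-05) and Btg2 (0.98), which slows cell division as Btg1 does, were higher. Jun (0.43) and Fos (-0.73) did not pass. Some of the lower genes rest on few NK-cell UMIs in the untreated, anti-OX40/CpG and PDOX libraries. Tnfaip3 had 0, 1 and 1, Ppp1r15a 1, 3 and 3, and Dusp1 3, 2 and 2. Cd69 had 1, 9 and 0 and Zfp36 2, 8 and 0. DESeq2 called 2 members, Rgs1 and Rgs2, and 6 were called once either the untreated or the PDOX library was left out.

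B cells, tested without anti-OX40/CpG (7 B cells), had 9 of 36 members higher (background 7.13%) and 5 lower (background 8.68%). Rgs2 (1.96, SE 0.298, edgeR adjusted p = 1.65e-09), Rel (1.95), Egr1 (1.5), Zfp36l1 (1.17), Ier5 (1.13), Dusp2 (0.89), Cd69 (0.70), Zfp36 (0.67) and Jund (0.66) were higher than in T cells. Tnfaip3, at 0.262, 0 and 0 in the untreated, anti-PD-L1 and PDOX B cells against 2.09, 1.43 and 1.25 in T cells, was lower (-4.60 as fitted on 1 B cell UMI), as were Pim1 (-1.31), Dusp1 (-1.11, edgeR adjusted p = 0.0144), Zfp36l2 (-0.96) and Ier2 (-0.61). Fos (0.52), Jun (0.13), Junb (-0.06), Nfkbia (-0.47) and Nr4a1 (-0.15) did not pass. With the anti-PD-L1 library left out 4 members were called, and with the untreated one left out 8.

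Monocytes, tested without the untreated library (9 monocytes), had the most calls: 13 of 39 members higher (background 11.8%) and 10 lower (background 10.6%). Atf3, a stress-induced ATF protein, stood at 1.68, 4.36 and 2.75 in monocytes against 0.0590, 0.00606 and 0.00746 in T cells (6.70, SE 0.535, edgeR adjusted p = 8.43e-34). Rgs2 (3.58, edgeR adjusted p = 1.36e-51), Nr4a1 (3.15, SE 0.339, edgeR adjusted p = 5.96e-19), Fosl2 (2.27), Fos (2.02, SE 0.209, edgeR adjusted p = 2.94e-20), Rel (1.64), Egr1 (1.46), Zfp36 (1.42), Nfkbiz (1.22), Ier5 (1.18), Dusp1 (1.17, edgeR adjusted p = 2.14e-05), Jun (0.95, edgeR adjusted p = 7.47e-05; -0.19 and not called without the deepest 5% of cells) and Zfp36l2 (0.61) were higher. Cd69 (-3.36, SE 0.445, edgeR adjusted p = 1.13e-12), Tnfaip3 (-2.31), Rgs1 (-2.04), Dusp2 (-1.28), Btg1 (-0.92), Ppp1r15a (-0.88), Jund (-0.80), Klf6 (-0.79) and Junb (-0.73, edgeR adjusted p = 0.00628) were lower, as was Myc, with 0 monocyte UMIs in these libraries. Nfkbia (0.12) did not pass. Monocytes thus held more Fos but less Junb and Jund than T cells of the same libraries. The monocytes of the anti-PD-L1 library had a median of 3444 UMIs against 1669 in its T cells, and with each cell thinned to 750 UMIs 11 members were called.

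Other genes of these pathways were followed through lists of their own, and no test set these lists against the members. Of 27 other NF-kB pathway genes, 21 were tested between effector-gate and naive-gate CD8 T cells, and 0 were higher (background 7.44%) and 2 lower (background 4.86%; Ikbke, -0.73, and Ikbkb, -0.44, both IkB kinases). Between CD4 states 14 were tested, with 0 higher (background 8.55%) and 1 lower (background 6.77%; Ikbke, -1.40). Of 28 other early response and MAP kinase genes, 17 were tested, with Bhlhe40 higher (4.14), a larger difference than that of any member, and Dusp10 (-0.94) and Klf2 (-0.54), a factor of naive T cell quiescence, lower. Between CD4 states 12 were tested, and again Bhlhe40 was higher (5.28) and Dusp10 lower (-1.19). Of 10 heat shock genes, 8 were tested, and edgeR called 0 in CD8 T cells and 1 lower in CD4 T cells (Hspe1, -0.98). In monocytes against T cells, 4 of 26 other NF-kB genes were higher (background 11.8%) and 4 lower (background 10.6%), and 8 of 22 other early response genes were higher and 2 lower.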

How the data were processed

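Blood of 4 mice, 1 per treatment, was enriched for T cells by depletion of other cells, with removal of debris and lysis of red cells, and made into 10x Chromium 3′ libraries. The authors deposited gene by cell tables of raw UMI counts (Cell Ranger among the tools the study names, mm10 in the processing notes), not normalized and without cell types; the labels' processing notes also name Seurat 2. The tables held 5434 cells with 2392650 to 4969885 UMIs per library, fewer cells than the total in the study's results and more than it kept after its filters, and no column of another sample.

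Cells with 200 or more genes entered, 5299 in all, of which 23 had over 2900 genes. Totals and tests left out 13 mitochondrial, 102 ribosomal and 10 hemoglobin genes. No doublet caller was run. Gates other than the T cell gates refused cells with Cd3 UMIs. All gates but the class's own refused cells with 2 or more B markers or 3 or more monocyte markers, and no gate refused NK markers. The CD8, CD4, NK, B and monocyte gates, the effector gate (3 or more of 10 markers) and the naive gate were set on marker UMIs, and the gene tables lacked 2 of the B markers. Levels carry exact Poisson intervals and ratios exact conditional binomial intervals, at 95%, for counting error only; 0 UMIs were taken as 3 in a ratio. The ratio of treated to untreated needed 30 UMIs over the 2 libraries.

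Contrasts within libraries were tested on counts summed per library and gate, with TMM, filterByExpr, library as a block because both gates come from the same library, and edgeR's quasi-likelihood test (edgeR 4.0.16, R 4.3.3), adjusted by Benjamini-Hochberg over all genes tested and called at 0.05. The 50 gate genes were not tested, and a library needed 10 cells in both gates. The code was tested on simulated data. Other counting and statistics used Python 3.11.15, numpy 2.4.6, scipy 1.17.1 and pandas 2.3.3. Alternatives were DESeq2 1.42.0, its size factors in edgeR, no low-count filter, no replicate block, each library left out, all genes kept, thinning to 750 UMIs, an upper limit on genes, no deepest 5% of cells, 4 effector markers, gates at a log1p value of 1, other UMI minimums and folds, and, chosen after seeing the data, ratios within naive-marker or effector-marker cells.

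Members, lists, gates and tests were chosen with earlier results of these data known. Named with values were, in each tested contrast, up to 10 called members per direction by p, and in the ratios the 3 highest and 3 lowest per gate, plus Fos, Jun, Junb, Dusp1, Nfkbia, Cd69 and Nr4a1; others were named to describe their role, after their values were seen.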

Additional observations from a re-analysis of the deposited data

Results flagged for a closer look

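Fosb stood out because its difference between effector-gate and naive-gate cells itself differed between the T cell lineages, by 2.96 on the log2 scale (SE 0.645, edgeR adjusted p = 0.0313). In CD4 T cells it went from 3, 3 and 0 UMIs in the naive-gate cells of the anti-PD-L1, the anti-OX40/CpG and the PDOX library to 11, 27 and 43 in the effector-gate cells, while in CD8 T cells it went from 13, 17 and 11 to 24, 55 and 41 with no call (0.24, edgeR adjusted p = 0.644). The difference lay between 2.35 and 3.80 over 12 alternatives and was called in 7 of them. It was not called by DESeq2, without the replicate block, with thinned cells, or once the anti-OX40/CpG or the PDOX library was left out.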

How the results depend on the processing

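Of 187 counts and summed ratios recomputed under alternatives planned with the analysis, 131 kept their value within the limits set for a change. The alternatives within naive-marker and effector-marker cells were added after seeing the data. The cause of the changes below was not tested, apart from fewer cells, UMIs or libraries where the setting itself removes them. Summed ratios in CD8 T cells for anti-PD-L1 became 0.785 with all genes kept, 0.772 at 2900 genes or fewer, 0.782 without Btg1, 0.693 with log1p gates, 0.812 in naive-marker and 0.711 in effector-marker cells. For anti-OX40/CpG they became 0.694 without Btg1 and 0.811 in naive-marker cells, and for PDOX 0.698 with all genes kept, 0.608 thinned, 0.610 without the deepest 5% of cells, 0.561 with log1p gates and 0.758 in naive-marker cells. In CD4 T cells the anti-PD-L1 ratio became 0.757 with log1p gates and 0.987 in effector-marker cells, that of anti-OX40/CpG 0.736 thinned, 0.813 in naive-marker and 0.821 in effector-marker cells, and that of PDOX 0.704 with all genes kept, 0.748 in naive-marker and 0.793 in effector-marker cells. In B cells anti-OX40/CpG gave 0.613 thinned and 0.673 without the deepest 5%, and PDOX 0.856 without them. In monocytes anti-PD-L1 gave 0.853 without the deepest 5% and PDOX 0.697 thinned. All of these stayed below 1.

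Members lower by 1.5-fold in CD8 T cells numbered 3 for anti-PD-L1 and 13 for PDOX at 100 UMIs or more, and at 2-fold 2, 2 and 9 for the 3 treatments. In CD4 T cells they numbered 0 for anti-PD-L1 and 7 for anti-OX40/CpG at 100 UMIs, and 0 and 3 at 2-fold. These counts, and the counts of calls in the next paragraph, are not set against the share of all genes. They show only how far a count moved with the setting.

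DESeq2 called 8 members between CD8 states, 5 between CD4 states, 2 in NK cells, 6 in B cells, 14 in monocytes and 0 for the lineage difference. Thinned cells gave 8, 7, 7 in NK cells, 11 in monocytes and 0 for the lineage difference. The library pairs the samples, and without the replicate block 8 members were called between CD8 states, 1 between CD8 and CD4 T cells, 7 in NK cells and 0 for the lineage difference. Without the deepest 5% of cells the counts were 7 between CD8 and CD4 T cells and 3 for the lineage difference, which was 2 with no low-count filter and 2 with all genes kept. Leaving out 1 library at a time gave 10 to 16 calls between CD8 states (10 without anti-PD-L1), 7 to 11 between CD4 states (7 without anti-OX40/CpG), 2 to 2 between CD8 and CD4 T cells whichever was left out, 6 to 8 in NK cells (6 without untreated or PDOX), 4 to 14 in B cells (4 without anti-PD-L1, 8 without untreated), 15 to 20 in monocytes (15 without anti-PD-L1) and 0 to 1 for the lineage difference (0 without anti-OX40/CpG).

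Signs turned for genes near 0. Leaving out 1 library at a time gave Dusp1 -0.53 to 0.33 and Cd69 -0.0858 to 0.43 between CD4 states, and in B cells Jun -0.00478 to 0.30, Junb -0.13 to 0.0365 and Nr4a1 -0.87 to 0.17. It gave Nfkbia -0.00166 to 0.35 in monocytes and -0.45 to 0.15 for the lineage difference. With no low-count filter Jun was -0.10 in B cells and Nfkbia -0.0554 in monocytes. With thinned cells Nfkbia was -0.37 in monocytes, and for the lineage difference Junb was -0.00554 and Nfkbia 0.0788. Monocyte Jun, called in the report, turned to -0.19 without the deepest 5% of cells.

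With 1 library per treatment no setting separates treatment from mouse or library, and 5 to 55 NK cells, B cells or monocytes per library leave wide counting intervals.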
